A study of Mus musculus with 6 samples.

Results

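The genes described here build the extracellular matrix and hold cells to it: basement membrane proteins, interstitial matrix proteins, the enzymes and chaperone that mature collagen, and integrins. They are 50 mouse symbols listed by name in 4 roles; no measured value enters the rule, but the list was drawn up with earlier results of these data known. The array carried a named probe for 49 of the 50, among 20972 named genes in all, with Col12a1 unmatched. Of these, 40 were bright enough to be tested, among 14595 genes tested: 18 of 21 basement membrane genes, 9 of 15 interstitial matrix genes, 6 of 7 collagen-modifying genes and 7 of 7 integrins.

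The arrays compare stable lines of mouse embryonic stem cells kept alive by different versions of Oct4, the POU-domain factor that maintains pluripotency, and the series asks what the coelacanth versions can replace. All 6 lines derive from ZHBTc4 cells, in which tetracycline silences the Oct4 transgene that otherwise sustains them, and all were made with tetracycline at 2 µg/mL and selected with puromycin at 1 µg/mL from day 2. Each carries a linearized pCAG-IP plasmid encoding a POUV protein: mOct4, the mouse protein, in clones 1 and 2; LcPOU5F1, coelacanth POU5F1, in clones 4 and 5; or LcPOU5F3, the other coelacanth paralogue, in clones 1 and 2. A line is 1 picked colony, so p-values rest on the spread between picked clones, pooled over the groups. The cells grew on gelatin, which is denatured collagen, in medium with serum and LIF, and RNA was hybridised to 1-colour Agilent arrays, 1 array per clone.

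A basement membrane is a thin sheet of matrix against which epithelial cells sit. Laminins, each a trimer of an alpha, a beta and a gamma chain, form one network; type IV collagen forms another; nidogens, perlecan and agrin link or decorate them. Integrins, each a pair of an alpha and a beta subunit, bind these networks and connect them to the actin or keratin skeleton. Fibrillar collagens, fibronectin, fibulins and small proteoglycans make up the looser interstitial matrix of connective tissue. In the early mouse embryo, laminin and type IV collagen are among the first matrix proteins laid down, by the epiblast, the trophectoderm and, in large amounts, the parietal endoderm.

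Sequences upstream of the genes are shown for 4 members, because the type IV collagen genes Col4a1 and Col4a2 are transcribed in opposite directions from a shared stretch of DNA, and Lamb1 and Itgb5 were among the members with the smallest p-values in LcPOU5F3 against mOct4, a choice made after their values were seen. RefSeq promoter windows on GRCm38.p6, from 250 bases before to 50 bases after the gene start, were found for 32 of the 50 members. Each is printed 5′ to 3′ on the gene's own strand, and capitals mark a CCAAT box (CCAAT or ATTGG) or a GC box (GGGCGG or CCGCCC). None of the 4 holds the octamer ATGCAAAT or its reverse complement ATTTGCAT, the classical POU-factor motif.
Col4a1 (chr8:11312777-11313076, minus strand): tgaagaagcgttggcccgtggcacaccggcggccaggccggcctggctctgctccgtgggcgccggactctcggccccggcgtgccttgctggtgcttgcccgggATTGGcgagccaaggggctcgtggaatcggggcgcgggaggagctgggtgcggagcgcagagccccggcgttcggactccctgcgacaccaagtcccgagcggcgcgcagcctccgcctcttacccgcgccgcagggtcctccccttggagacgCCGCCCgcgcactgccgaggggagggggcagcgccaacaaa
Col4a2 (chr8:11312555-11312854, plus strand): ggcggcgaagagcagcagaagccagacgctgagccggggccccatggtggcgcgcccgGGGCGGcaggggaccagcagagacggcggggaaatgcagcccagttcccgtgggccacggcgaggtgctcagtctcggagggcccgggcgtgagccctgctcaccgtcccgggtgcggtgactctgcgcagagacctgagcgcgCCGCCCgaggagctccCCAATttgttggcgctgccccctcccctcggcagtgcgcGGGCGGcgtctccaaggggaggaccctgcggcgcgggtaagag
Lamb1 (chr12:31265043-31265342, plus strand): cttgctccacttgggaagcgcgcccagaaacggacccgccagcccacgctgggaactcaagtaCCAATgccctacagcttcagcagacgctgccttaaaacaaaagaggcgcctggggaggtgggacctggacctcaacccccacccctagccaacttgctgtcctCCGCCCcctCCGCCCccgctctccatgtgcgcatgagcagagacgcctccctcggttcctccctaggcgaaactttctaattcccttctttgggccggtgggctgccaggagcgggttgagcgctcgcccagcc
Itgb5 (chr16:33829415-33829714, plus strand): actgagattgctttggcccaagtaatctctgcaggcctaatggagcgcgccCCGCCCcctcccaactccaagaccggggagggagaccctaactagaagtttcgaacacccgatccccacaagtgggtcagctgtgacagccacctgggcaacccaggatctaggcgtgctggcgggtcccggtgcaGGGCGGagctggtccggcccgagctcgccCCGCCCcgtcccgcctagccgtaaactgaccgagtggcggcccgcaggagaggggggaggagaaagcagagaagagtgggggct
The starts of Col4a1 and Col4a2 lie 21 bases apart, and their windows share 78 bases, and the shared stretch holds 1 GC box, printed as CCGCCC for Col4a1 and as GGGCGG for Col4a2. Among the 32 members with a window, 24 held a GC box on either strand and 11 a CCAAT box, against 35.7% and 37.4% of all 32851 windows. Members were counted as genes with a match in any window. The percentages count single windows and are not limited to genes on the array, so the 2 are not like for like. The octamer was found in 1 member window, that of Col3a1, and in 1.74% of all windows. These are matches of letters and do not show that a factor binds.

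Levels are given as log2 intensity relative to the 75th percentile of the array, so 0 is a fairly bright spot and each unit is a doubling. A probe's brightness also depends on its sequence, so levels are compared between clones of a gene and never between genes. Differences are log2 fold changes with standard errors from limma, which fits all 6 arrays together, and an adjusted p is Benjamini-Hochberg over the 14595 genes, called under 0.05. Every group mean has n = 2. Where a probe was not well above background on either array of a group, the fold is given as "at least", set against the detection floor of those arrays, which differs between arrays. In bulk RNA, fewer cells of a type and less RNA per cell cannot be told apart.

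The share of probes well above background ranged over the arrays from 43.5% to 57.8%, and no spot was saturated. The embryonic stem markers were present on every array (12 of 12), but 11 of the 12 fell in LcPOU5F3 against mOct4. Trophectoderm markers went the other way: 8 of 11 tested rose and 1 fell, and Elf5 was not well above background on any array. The log2 of their summed signal was 9.02 and 9.08 in the LcPOU5F3 clones. It was 5.19 and 5.22 in the mOct4 clones and 5.06 and 4.64 in the LcPOU5F1 clones. Such a sum is set mostly by its brightest probes: Krt18 alone was at 8.55 and 8.58 in the LcPOU5F3 clones, and the fibroblast marker Vim at 4.43 and 4.72 in the mOct4 clones. In the LcPOU5F3 clones the brightest fibroblast marker was instead Tagln, at 4.74 and 5.83, beside Vim at 3.43 and 5.10. Tagln was at -0.40 and -0.31 in the mOct4 clones. Fibroblast markers summed to 5.45 and 6.76 in the LcPOU5F3 clones, 4.64 and 4.88 in the mOct4 clones and 3.98 and 5.15 in the LcPOU5F1 clones, with 3 of 7 tested higher and 2 lower and with Prrx1, Lum and Fap below background throughout. Endoderm markers summed to 1.53 and 1.99, against 1.15 and 0.99 in mOct4 and 1.49 and 1.13 in LcPOU5F1, with 2 of 6 tested higher and 1 lower in LcPOU5F3 than in mOct4; Pdgfra, Hnf4a and Afp were below background on all arrays. These marker levels move with the same contrast as the matrix genes, and their part in the results below was not tested.

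In the LcPOU5F3 clones, 6 of the 7 listed integrin subunits and both laminin beta chains tested (Lamb1 and Lamb2) rose against the mOct4 clones, while nidogen Nid2 fell and the interstitial matrix genes other than Dcn did not pass the test. Of the 40 members tested, 20 rose, 1 fell and 19 did not pass in limma, where 11.8% of all genes tested rose and 11.8% fell (23.6% called in either direction). By role, 10 of 18 basement membrane genes rose and 1 fell; 1 of 9 interstitial matrix genes, 3 of 6 collagen-modifying genes and 6 of 7 integrins rose. The median log2 fold change was 0.76 over the members, 0.84 over basement membrane genes, -0.19 over interstitial matrix genes, 0.66 over collagen-modifying genes and 2.05 over integrins, beside -0.09 over all genes, and the medians were the same with unmeasured genes at their bounds. Lama4, Fras1 and Dcn entered the test only through the LcPOU5F3 arrays, where they are bright, and Col1a1 only through the mOct4 arrays. Among the 36 members measured on all 6 arrays, 17 rose and 1 fell, beside 12.1% and 10.9% (23% together) of the 11607 genes measured on all 6. With arrays centred on the median, 14 members rose and 0 fell, beside 9% and 7.86% of all genes. The calls lost there were Nid2 and the rises of Agrn, Frem2, Hspg2, Itga6, Lamb2, Lamc1 and P4ha2, and Col4a1 was gained.

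All 20 members that rose were brighter in both LcPOU5F3 clones than on any of the other 4 arrays, which also held for 95.5% of the 1723 genes that rose. LcPOU5F3 clone 2 was the brighter of the pair for all 20, as it was for 80.4% of the 1723. The adjusted p-values rest on there being 2 mOct4 clones: without mOct4 clone 1, 1 member passed (Fras1, higher), and without mOct4 clone 2, or with the slide as a block, 2 passed (Fras1 and Dcn, higher). Those fits called 35 and 41 of the 14595 genes in all, while the sign of every called difference was kept. Slide 1 held 5 arrays and slide 2 only mOct4 clone 2, so that clone and its slide cannot be told apart. A fit of only the 4 mOct4 and LcPOU5F3 arrays called 16 members (2194 genes in all). It gained Col4a1 and lost Agrn, Frem2, Itga3, Itga6, Lamb2 and P4ha2, so those calls rest on a spread shared with the LcPOU5F1 arrays.

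**Figure D1:**
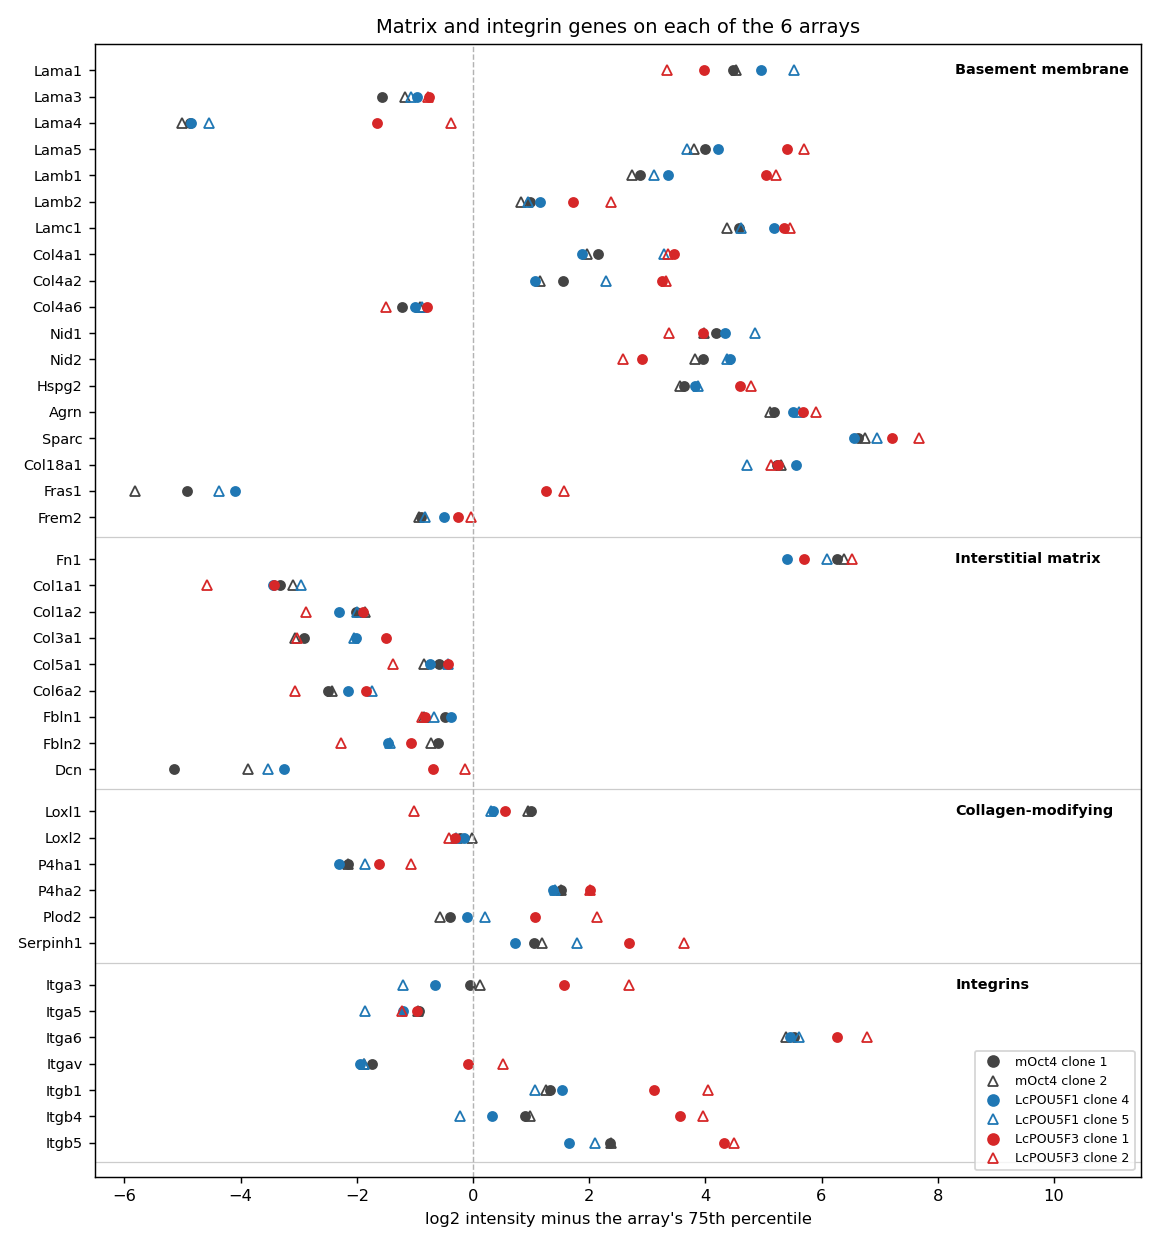
Log2 intensity relative to the array's 75th percentile (horizontal axis) of the 40 tested members (rows, by role); each symbol is 1 clone, filled circles for clones 1 and 4 and open triangles for clones 2 and 5. The red LcPOU5F3 symbols lie to the right of the others for most integrins, for example Itgb5 at 4.32 and 4.50 against 1.66 to 2.37 on the other arrays, and mix with them for most interstitial matrix genes.

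Among the laminin chains, the beta chain Lamb1 showed the smallest p. Its levels were 2.87 and 2.74 in mOct4 clones 1 and 2, 3.36 and 3.12 in LcPOU5F1 clones 4 and 5, and 5.04 and 5.21 in LcPOU5F3 clones 1 and 2. The LcPOU5F3 clones stand well above the other 4 arrays, and clones of a group differ by no more than 0.24. Lamb1 rose 4.99-fold against mOct4 (log2 2.32 ± 0.17, limma adjusted p = 0.0046) and was lower in LcPOU5F1 than in LcPOU5F3 by a log2 difference of -1.88 (limma adjusted p = 0.0066).

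The alpha chains, which carry the main integrin-binding end of a laminin, did not move as a group. Lama5, the alpha chain of most adult and embryonic basement membranes, was at 4.00 and 3.80 in mOct4, 4.21 and 3.68 in LcPOU5F1 and 5.40 and 5.70 in LcPOU5F3. It rose 3.13-fold against mOct4 (log2 1.64 ± 0.24, limma adjusted p = 0.014). Lama4, an alpha chain known from vessels and muscle, was at -4.87 and -5.01 in mOct4 and -4.85 and -4.55 in LcPOU5F1, all below background, and at -1.66 and -0.37 in LcPOU5F3. Its rise was at least 6.58-fold against mOct4 (limma adjusted p = 0.0085), with the LcPOU5F3 clones themselves 1.29 apart; with 1 common floor for all arrays the log2 difference was 1.43 and the adjusted p in limma 0.1.

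Lama1, the alpha chain of the laminin found around the early embryo, ran the other way. It stood at 4.48 and 4.53 in mOct4, 4.95 and 5.53 in LcPOU5F1 and 3.98 and 3.34 in LcPOU5F3. The 3 groups do not overlap, with LcPOU5F1 highest and LcPOU5F3 lowest. Against mOct4 the LcPOU5F3 difference of -0.84 ± 0.30 missed the threshold (limma adjusted p = 0.099), whereas Lama1 was 2.98-fold higher in LcPOU5F1 than in LcPOU5F3 (log2 1.57 ± 0.30, limma adjusted p = 0.027; not called with arrays centred on the median). Lama3, an alpha chain of epithelial anchoring laminin, was at -1.57 and -1.17, -0.97 and -1.06, and -0.75 and -0.77 in the same order of groups, a difference of 0.61 between LcPOU5F3 and mOct4 that did not pass (limma adjusted p = 0.07).

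Of the other laminin chains, Lamb2, a beta chain of muscle and kidney basement membranes, was at 0.99 and 0.82 in mOct4, 1.16 and 0.94 in LcPOU5F1 and 1.73 and 2.37 in LcPOU5F3. It rose 2.21-fold (limma adjusted p = 0.034). The common gamma chain Lamc1, a partner in most laminins, was at 4.58 and 4.37, 5.19 and 4.62, and 5.36 and 5.45. Its 1.90-fold rise (limma adjusted p = 0.045) was the smallest among the called laminin chains, and LcPOU5F1 clone 4 came within 0.17 of LcPOU5F3 clone 1. Neither Lamb2 nor Lamc1 passed between LcPOU5F1 and LcPOU5F3 (limma adjusted p = 0.051 and 0.18). Lamb3, a beta chain of epithelial anchoring laminin, was well above background on 2 arrays and was not tested.

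The paired type IV collagen genes tracked each other over the clones. Col4a1 was at 2.16 and 1.97 in mOct4, 1.87 and 3.29 in LcPOU5F1 and 3.46 and 3.35 in LcPOU5F3. Col4a2, transcribed from the opposite strand of the stretch printed above, was at 1.55 and 1.16, 1.06 and 2.29, and 3.26 and 3.32. For both genes LcPOU5F1 clone 5 stood far above clone 4, by 1.42 and 1.23, and for Col4a1 it came within 0.07 of LcPOU5F3 clone 2. Col4a2 rose 3.83-fold against mOct4 (log2 1.94 ± 0.42, limma adjusted p = 0.033), and Col4a1, 2.53-fold higher, did not pass (log2 1.34 ± 0.47, limma adjusted p = 0.094). Without LcPOU5F1 clone 5, both passed between the coelacanth groups, lower in LcPOU5F1, but with all arrays neither did (limma adjusted p = 0.24 and 0.054).

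Col4a6, a minor type IV chain, was at -1.22 and -0.92 in mOct4, -1.0 and -0.87 in LcPOU5F1 and -0.79 and -1.50 in LcPOU5F3, with overlapping groups. Col4a5, another minor chain, was well above background on 2 arrays and was not tested. The nidogens, which bridge laminin to type IV collagen, were lowest in the LcPOU5F3 clones. Nid2 was at 3.96 and 3.83 in mOct4, 4.43 and 4.37 in LcPOU5F1 and 2.91 and 2.59 in LcPOU5F3, without overlap. It fell 2.22-fold against mOct4 (log2 -1.15 ± 0.17, limma adjusted p = 0.015; not called with arrays centred on the median) and was 3.14-fold higher in LcPOU5F1 than in LcPOU5F3 (limma adjusted p = 0.0082).

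Nid1 was at 4.18 and 3.97 in mOct4, 4.34 and 4.86 in LcPOU5F1 and 3.96 and 3.37 in LcPOU5F3. Its difference of -0.41 ± 0.29 between LcPOU5F3 and mOct4 did not pass (limma adjusted p = 0.34), and its other probes gave -0.31 and -0.57. LcPOU5F3 clone 1 and mOct4 clone 2 were nearly level. Nid1 between LcPOU5F1 and LcPOU5F3, at 0.93, also missed the threshold (limma adjusted p = 0.075).

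**Figure D2:**
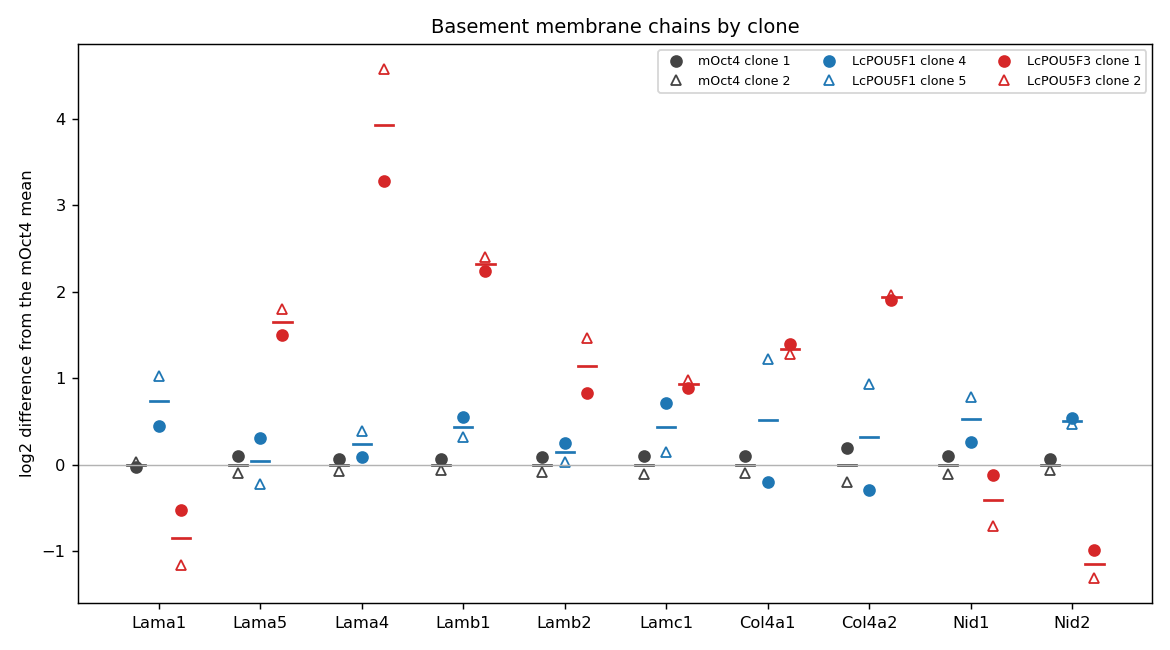
Log2 difference from the mOct4 mean (vertical axis) for laminin, type IV collagen and nidogen chains (horizontal axis); each symbol is 1 clone and each short line a group mean. Lamb1 and Lama5 of the LcPOU5F3 clones lie above all other clones, Lama1 and Nid2 of the LcPOU5F3 clones lie below them, and LcPOU5F1 clone 5 lies far above clone 4 for Col4a1 and Col4a2.

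Of the heparan sulphate proteoglycans of the basement membrane, Hspg2 and Agrn rose and Col18a1 did not pass. Hspg2, which encodes perlecan, was at 3.63 and 3.56 in mOct4, 3.83 and 3.87 in LcPOU5F1 and 4.60 and 4.79 in LcPOU5F3, a 2.15-fold rise (limma adjusted p = 0.012) that a further probe put at 1.00 on the log2 scale, beside 1.1 for the probe used. Agrn, which encodes agrin, was at 5.18 and 5.11, 5.51 and 5.61, and 5.68 and 5.91. It rose 1.57-fold (limma adjusted p = 0.039), but a dimmer Agrn probe differed by only 0.06 on the log2 scale, and with the mean over both probes the call was lost.

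The Fraser complex proteins Fras1, Frem1 and Frem2, which lie under embryonic epithelia and anchor skin, differed from one another. Fras1 was at -4.93 and -5.82 in mOct4 and -4.10 and -4.37 in LcPOU5F1, below background on all 4 arrays, and at 1.26 and 1.56 in LcPOU5F3. Its rise, at least 35.3-fold against mOct4 (limma adjusted p = 0.0026), had the smallest p of the 40 members, and it was at least 17.8-fold lower in LcPOU5F1 than in LcPOU5F3 (limma adjusted p = 0.0037). The size depends on the floor: the log2 difference from mOct4 was 3.85 with 1 common floor and 3.46 with normexp background correction, both called. Frem2 was at -0.89 and -0.93, -0.50 and -0.83, and -0.26 and -0.04, a rise of 1.69-fold against mOct4 (limma adjusted p = 0.04) that did not pass against LcPOU5F1 (limma adjusted p = 0.1). Frem1 was not well above background on any array. Sparc, a collagen-binding matricellular protein, was at 6.63 and 6.74, 6.55 and 6.95, and 7.21 and 7.67, which did not pass against mOct4 (log2 0.75 ± 0.23, limma adjusted p = 0.074), and Col18a1, a collagen that carries heparan sulphate, differed by -0.09 ± 0.3 (limma adjusted p = 0.86).

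Of the interstitial matrix genes, Dcn, which encodes the collagen-binding proteoglycan decorin, was the only 1 of 9 tested to pass. It was at -5.14 and -3.87 in mOct4 and -3.25 and -3.52 in LcPOU5F1, below background on all 4 arrays, and at -0.68 and -0.14 in LcPOU5F3. The LcPOU5F3 clones stand clear of the rest, with a rise of at least 10.0-fold against mOct4 (limma adjusted p = 0.0085) and of at least 5.05-fold against LcPOU5F1 (limma adjusted p = 0.018). With 1 common floor the log2 difference from mOct4 was 2.04, and with normexp background correction 1.65, both called.

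The other 8, which are the fibrillar collagen genes Col1a1, Col1a2, Col3a1 and Col5a1, the microfibrillar collagen Col6a2, fibronectin (Fn1) and the fibulins Fbln1 and Fbln2, differed by -1.01 to 0.72 between LcPOU5F3 and mOct4, with limma adjusted p from 0.13 to 1.0. The interstitial genes were also those on which the LcPOU5F3 clones differed most: clone 2 was dimmer than clone 1 for 7 of 9, with a median absolute difference of 0.97, beside 0.76 over collagen-modifying genes, 0.26 over basement membrane genes and 0.33 over all genes. Clone 2 was also dimmer for 8174 of the 14595 genes, and for probes below background everywhere (Postn at -4.28 and -5.95, Mgp at -4.67 and -6.22 in clones 1 and 2); the part of background in this difference was not tested. Col3a1 shows the pattern, at -1.50 in LcPOU5F3 clone 1 and -3.03 in clone 2, a span that covers mOct4 at -2.90 and -3.07 and LcPOU5F1 at -2.02 and -2.04. With LcPOU5F3 clone 1 left out, Col1a1, Col1a2 and Fbln2 passed as lower than mOct4, and with clone 2 left out instead Col3a1 passed as higher. Col5a2, Postn and Mgp were below background on every array, and Fbn1 and Col6a1 were well above it on 2 each, so none of these 5 was tested.

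The collagen-modifying genes fell into those that rose and those that did not. Plod2, a lysyl hydroxylase that prepares collagen for cross-linking, was at -0.40 and -0.56 in mOct4, -0.10 and 0.21 in LcPOU5F1 and 1.07 and 2.13 in LcPOU5F3, a 4.22-fold rise (limma adjusted p = 0.021). Serpinh1, the collagen chaperone, was at 1.05 and 1.18, 0.73 and 1.79, and 2.68 and 3.64, a 4.12-fold rise (limma adjusted p = 0.036). For both, the LcPOU5F3 clones differed by about 1 on the log2 scale and still did not overlap the other arrays. P4ha2, a prolyl hydroxylase subunit that stabilises the triple helix, was at 1.52 and 1.51, 1.38 and 1.41, and 2.02 and 2.02, a rise of only 1.42-fold (limma adjusted p = 0.049). Its paralogue P4ha1, 0.81 higher, did not pass (limma adjusted p = 0.08).

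The lysyl oxidases, which form the cross-links outside the cell, gave no called gene among the 2 members tested. Loxl1 was at 1.00 and 0.94 in mOct4, 0.35 and 0.31 in LcPOU5F1 and 0.55 and -1.02 in LcPOU5F3, and its difference of -1.21 from mOct4 did not pass (limma adjusted p = 0.14), the LcPOU5F3 clones lying 1.58 apart. Loxl2 differed by -0.23 (limma adjusted p = 0.33). Lox was well above background on 1 array and was not tested.

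The integrins had the highest median of the 4 roles. Itgb4, the beta subunit that pairs with Itga6 and links laminin to keratin in hemidesmosomes, was at 0.89 and 0.99 in mOct4, 0.33 and -0.23 in LcPOU5F1 and 3.57 and 3.96 in LcPOU5F3. It rose 7.11-fold against mOct4 (log2 2.83 ± 0.25, limma adjusted p = 0.0062), and was 13.1-fold lower in LcPOU5F1 than in LcPOU5F3 (limma adjusted p = 0.0044). Itga6, its laminin-binding partner, was at 5.53 and 5.38, 5.46 and 5.62, and 6.27 and 6.79, a rise of 2.11-fold (limma adjusted p = 0.028). Each subunit was read by its own probe, and whether their rises differ was not tested.

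Itgb1, the beta subunit shared by most matrix-binding integrins, was at 1.32 and 1.26 in mOct4, 1.54 and 1.07 in LcPOU5F1 and 3.12 and 4.05 in LcPOU5F3, and rose 4.92-fold (limma adjusted p = 0.015), with 2.30 on the log2 scale from this probe and 2.10 from another. Itga3, which pairs with it to bind laminin, was at -0.05 and 0.12, -0.65 and -1.20, and 1.56 and 2.68. It rose 4.25-fold against mOct4 (limma adjusted p = 0.026) and was 8.28-fold lower in LcPOU5F1 than in LcPOU5F3 (limma adjusted p = 0.014). The fibronectin receptor subunit Itga5, another partner of Itgb1, was the integrin that did not pass: -0.93 and -0.95, -1.20 and -1.86, and -0.97 and -1.23, a difference of -0.16 from mOct4 (limma adjusted p = 0.69).

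The subunits of the vitronectin receptor, Itgav and Itgb5, both rose past 4-fold. Itgav was at -1.74 and -1.88 in mOct4, -1.95 and -1.88 in LcPOU5F1 and -0.08 and 0.52 in LcPOU5F3 (4.09-fold, log2 2.03 ± 0.24, limma adjusted p = 0.0092), and a further probe gave 1.64. Itgb5 was at 2.36 and 2.37, 1.66 and 2.10, and 4.32 and 4.50 (4.13-fold, log2 2.05 ± 0.20, limma adjusted p = 0.0068). Neither gene's LcPOU5F3 clones overlapped the other arrays, and Itgb5 was 5.78-fold lower in LcPOU5F1 than in LcPOU5F3 (limma adjusted p = 0.0055).

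In the LcPOU5F1 clones, no member passed against mOct4. The call was 0 of 40 in limma, where 0.0343% of all genes passed (5 of 14595), and 5 members had an unadjusted p under 0.05, beside 2265 of the 14595 genes. They were Lamb1, Nid2 and Agrn, at 0.44, 0.50 and 0.42, Itgb4, at -0.89 with a 95% interval of -1.52 to -0.25, and Fras1, which was below background on all 4 arrays compared. The smallest adjusted p in limma was 0.24. Over the 37 members measured in either group, differences ranged from -0.96 for Itga3 to 0.95 for Col3a1, and the median over all 40 was 0.14 beside 0.10 over all genes. Lama4, Fras1 and Dcn were below background in both groups, where probes never above background on any array (Mgp, Col5a2, Frem1 and Postn) also differed, by 1.16 to 1.27.

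The intervals show what such clones can resolve. The median 95% interval from limma reached 0.72 on the log2 scale to either side of the difference. Lama5 lay between -0.57 and 0.66 and Itgb1 between -0.87 and 0.91, while Col4a2, with its unlike clones, lay between -0.76 and 1.40. Of the 18 basement membrane genes 17 lay above 0, with a median of 0.34, but with arrays centred on the median 8 lay above 0 and the median was -0.03; the integrin median was -0.48, and -0.85 with that centring. Without the LcPOU5F3 arrays, Col3a1 passed as higher in LcPOU5F1 than in mOct4 (0.95), beside 537 genes called in all. Leaving out only 1 LcPOU5F3 clone is the same fit, because a single clone adds nothing to the spread.

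**Figure D3:**
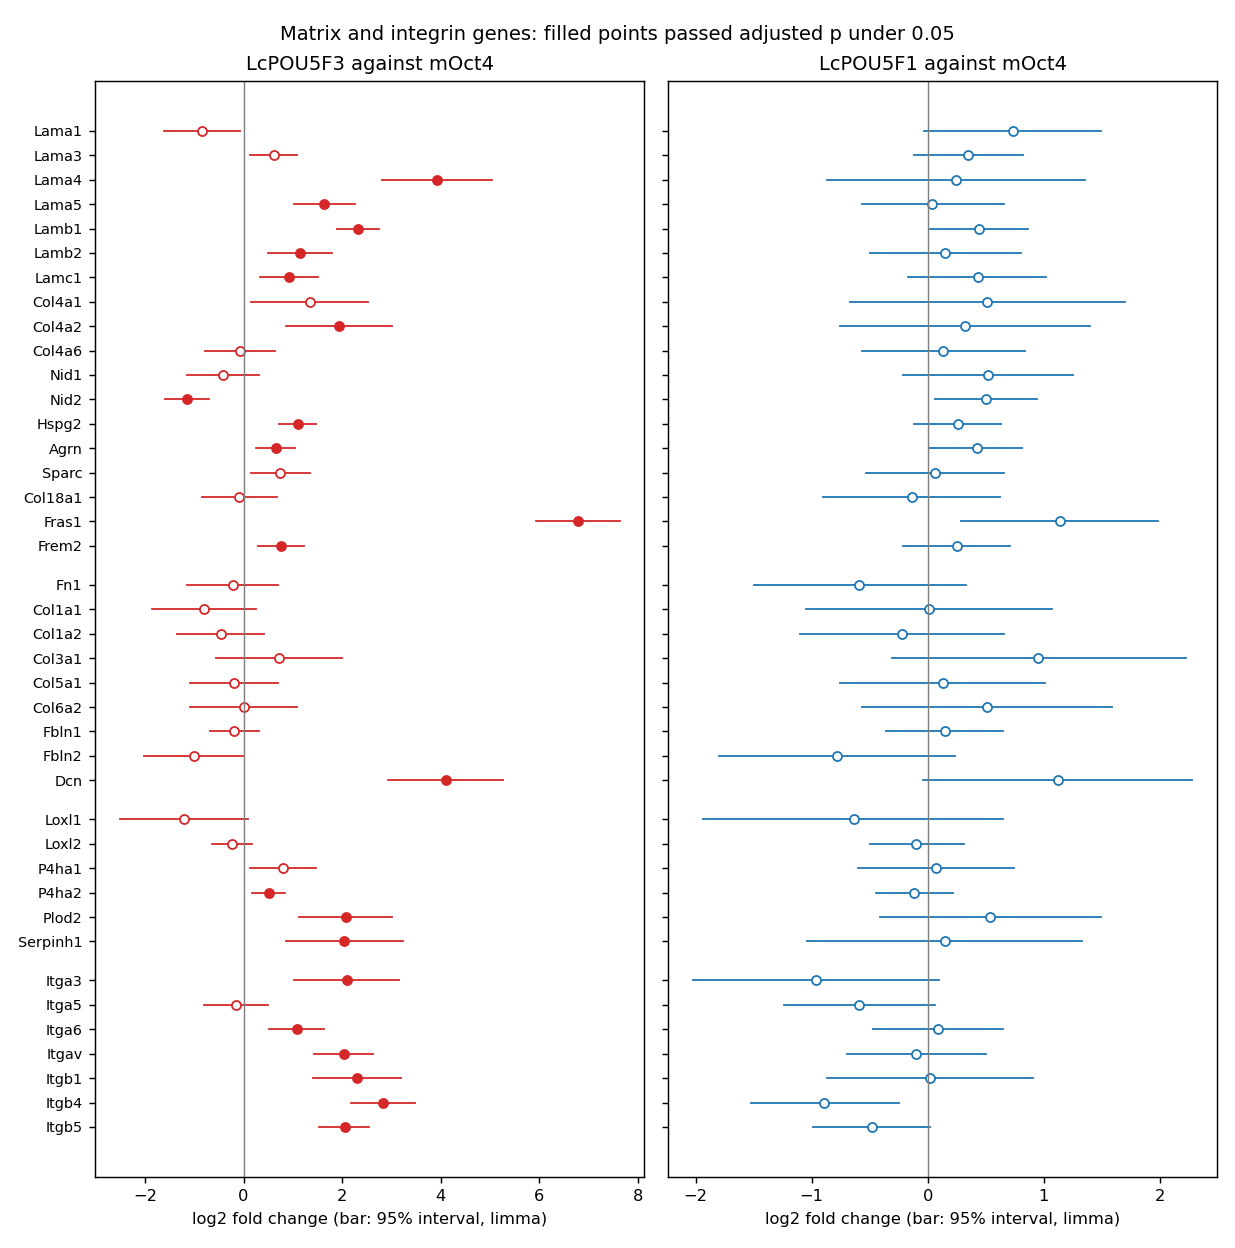
Log2 fold change with its 95% interval from limma (horizontal axes) for the 40 tested members (rows, by role), LcPOU5F3 against mOct4 on the left and LcPOU5F1 against mOct4 on the right, with the same mOct4 arrays in both; filled points passed an adjusted p under 0.05. On the left 21 points are filled, on the right 0.

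Set directly against each other, the coelacanth groups differed at 17 members: Lama1 and Nid2 were higher and 15 members lower in LcPOU5F1 than in LcPOU5F3 in limma, beside 10.5% and 9.98% of all genes (20.5% in either direction). With arrays centred on the median the split was 1 higher and 17 lower, beside 3.44% and 12.7%. This comparison shares the LcPOU5F3 arrays with the one against mOct4, so it is no separate evidence about them. By role, 6 of 7 integrins, 5 of 18 basement membrane genes, 3 of 6 collagen-modifying genes and 1 of 9 interstitial genes were lower in LcPOU5F1, with a median of -0.57 over the members and 0.21 over all genes. Among the 36 members measured on all arrays, 2 were higher and 12 lower, beside 11% and 9.26% (20.3% together) of such genes. The 5 members that rose against mOct4 but did not pass here were Agrn, Col4a2, Frem2, Lamb2 and Lamc1. The sizes also vary with single clones. Over the 17 called members, the median absolute log2 difference was 2 without LcPOU5F1 clone 4 and 2.04 without clone 5. It was 2.38 without LcPOU5F3 clone 1 and 1.79 without LcPOU5F3 clone 2. The mOct4 clones are not part of this comparison and enter only the shared estimate of spread. A fit of the 4 arrays compared called 8 members (498 genes in all), and leaving out 1 mOct4 clone is that same fit.

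Further genes of the same pathways, outside the 50, were read from lists drawn up by function, with counts for LcPOU5F3 against mOct4. Genes below background in one group entered these counts through the other, so counts over genes measured on all 6 arrays are given too. The shares to set beside all of these counts are 11.8% higher and 11.8% lower over all genes tested. Over genes measured on all 6 arrays they are 12.1% and 10.9%. Among other basement membrane genes 4 of 9 tested rose and 1 fell (3 and 0 of 5 measured on all arrays): Npnt, an integrin-binding protein of embryonic basement membranes, rose by 1.93 on the log2 scale, Tinagl1 by 2.64 and the collagen cross-linking peroxidase Pxdn by 1.74, and Smoc1 was at least 2.96-fold lower (limma adjusted p from 0.0095 to 0.011 for these). Among other fibrillar and microfibril genes 6 of 17 rose and 1 fell (4 and 0 of 8 measured on all arrays), with the fibulin family members Efemp1 at least 12.4-fold higher and Efemp2 at 1.76, and the collagens Col2a1 at 1.91 and Col16a1 at 1.73 (limma adjusted p from 0.0065 to 0.011). Other collagen-modifying genes gave 4 higher and 1 lower of 13 (3 and 1 of 12), led by Bmp1, the procollagen C-proteinase, at 2.70 (limma adjusted p = 0.0053), with Loxl4 at 2.51, Fkbp10 at 1.70 and Plod3 at 1.11. Loxl4 is a lysyl oxidase like Loxl1 and Loxl2.

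Matricellular proteins and proteoglycans gave 6 higher and 1 lower of 12 (5 and 1 of 10 measured on all arrays), with thrombospondin Thbs1 at 6.68 on the log2 scale (limma adjusted p = 0.0055), Ccn1 at 3.90, Ccn2 at 4.14 and Gpc4 at 2.10. Matrix proteases and their inhibitors gave 7 higher and 0 lower of 15 (4 and 0 of 6), on both sides of that balance: the inhibitors Timp3 at 4.47 and Serpine2 at 2.61, and the membrane protease Mmp14 at 1.76 (limma adjusted p from 0.0045 to 0.0071). Unlike the 7 listed integrins, the other integrins gave 1 higher and 2 lower of 9 (1 and 2 of 7): Itga8 at 3.98, Itga9 at -2.45 and Itgb7 at -2.27 (limma adjusted p from 0.0088 to 0.021).

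Other matrix receptors gave 7 higher and 1 lower of 10 (7 and 0 of 8 measured on all arrays), including the syndecans Sdc2 at 1.51 and Sdc4 at 2.05, the collagen receptor Ddr1 at 1.89 and the integrin-associated tetraspanin Cd151 at 1.84 (limma adjusted p from 0.008 to 0.013). The adaptors that tie integrins to the skeleton gave 9 higher and 2 lower of 19, all measured on every array, with Zyx at 3.84, Parva at 3.34, Plec, which links Itgb4 to keratin, at 2.26 and Ilk at 1.89 (limma adjusted p from 0.0065 to 0.0092). In LcPOU5F1 against mOct4, limma called 0 genes of these 8 lists.

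**Figure D4:**
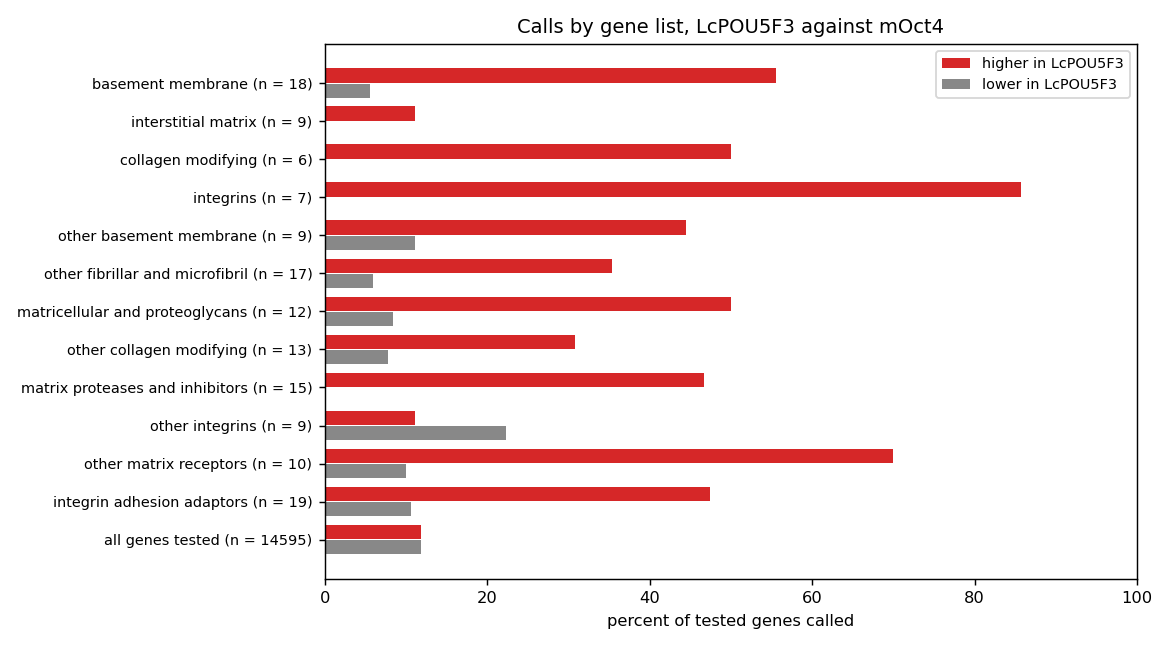
Percent of the tested genes of each list (horizontal axis) that were called higher (red) or lower (grey) in LcPOU5F3 than in mOct4, with the number tested beside each list name; the bottom bars give all 14595 genes. Integrins have the longest red bar, 6 of 7, and interstitial matrix, 1 of 9, is near the 11.8% of all genes.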

How the data were processed

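The 6 arrays hold 1 clone each. Per the file headers, the authors extracted spot intensity with Agilent Feature Extraction 11.0.1.1; the deposited processed intensity had background and spatial trend removed and was not scaled across arrays. The array design names mm9. The deposited series matrix held the same intensity, rounded, on a linear scale without centring.

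Log2 processed intensity was taken relative to the 75th percentile of non-control spots of its array. Outlier spots were left out and spots of a probe averaged. Accessions were matched without versions to RefSeq symbols (GRCm38.p6, names only), which gave 27656 of 55681 probes 1 symbol. A probe well above background on both arrays of a group was kept, and the kept probe with the highest mean stood for its gene. A model with 1 mean per group used limma 3.58.1 (lmFit, eBayes, 3 residual degrees of freedom, all 6 arrays) under R 4.3.3, and the steps were tested on simulated data. There, 200 of 14595 genes were changed in each comparison. Changes of 2 on the log2 scale were called for 62% to 64% of genes, and changes of 1 for 20% to 26%. False calls numbered 10 for LcPOU5F3 against mOct4, 1 for LcPOU5F1 against mOct4 and 18 for LcPOU5F1 against LcPOU5F3. Many 2-fold changes would thus be missed.

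An "at least" fold put in the dimmer group's place, on each array, its detection floor (the dimmest signal still well above background) or the probe's value, whichever was greater. Members and lists were chosen with earlier results of these data known. Named were members that passed in any comparison, laminin, type IV collagen and nidogen chains, and up to 4 genes of smallest p per further list; 1 gene that this rule names is not reported here. Alternatives were median centring, quantile normalization, normexp (offset 50, on the median spot intensity because the mean was not among the columns used), other filters, probe rules, thresholds and variance models, the series matrix, slide and replicate blocks, and each array left out. A common floor was added after the data were seen.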

Additional observations from a re-analysis of the deposited data

How the results depend on the processing

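No called member changed sign under any alternative run. Against 21 members called between LcPOU5F3 and mOct4, 12 were called with no filter on dim probes and 7 at an adjusted p under 0.01. Against 17 between LcPOU5F1 and LcPOU5F3 these gave 11 and 6. The fit of the 4 arrays compared gave 16 members between LcPOU5F3 and mOct4 and 8 between LcPOU5F1 and LcPOU5F3. The slide as a block is the same as leaving out mOct4 clone 2, which lost most calls between LcPOU5F3 and mOct4, as given above. Between LcPOU5F1 and LcPOU5F3 the slide block is the same fit as that of the 4 arrays compared. Leaving out each array in turn gave 1 to 25 members between LcPOU5F3 and mOct4 (35 to 5109 of all genes), 0 to 1 between LcPOU5F1 and mOct4 and 6 to 28 between LcPOU5F1 and LcPOU5F3. Between LcPOU5F1 and mOct4, the fit of the 4 arrays compared, already given above, called 1 member (Col3a1, higher). Under every other alternative that kept all arrays of those groups and both LcPOU5F3 clones, 0 were called. Median centring moved the median of all genes from 0.10 to -0.27 between LcPOU5F1 and mOct4 and from 0.21 to -0.20 between LcPOU5F1 and LcPOU5F3. It called 14, 0 and 18 members, and the members' median minus that of all genes stayed at 0.85, 0.04 and -0.78. Between LcPOU5F3 and mOct4 it moved Fras1 only from 6.78 to 6.82, but the limma adjusted p of Fras1 from 0.0026 to 7.2e-44. The spread that limma estimated thus changed with the centring. Calls lost or gained in that comparison, such as Nid2 (-1.15 and -1.11), therefore do not show that the difference itself moved.

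With the clone number as a replicate block, limma called 0 members between LcPOU5F3 and mOct4 (23 of 40 at an unadjusted p under 0.05) and 0 genes in all. The numbers name separately picked clones: deviations of same-numbered clones correlated at -0.097, so the block pairs nothing known. LcPOU5F1 clones share no number with the other groups, so no such fit was possible there. Groups of 2 limit every statement on genes that missed the threshold, and a low signal over background left 9 members on the array untested.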
